A study of Homo sapiens with 60 samples.

Results

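The genes described here encode the oxidative phosphorylation machinery of HT29, a human colorectal adenocarcinoma cell line, measured by RNA sequencing after exposure to herbal extracts. They were chosen by symbol: protein-coding genes whose names start with the stems used for subunits of complexes I to IV and of the ATP synthase (MT-ND, MT-CO, MT-CYB, MT-ATP, NDUFA, NDUFB, NDUFC, NDUFS, NDUFV, SDH, UQCR, COX4 to COX8 and ATP5). Of 60675 gene identifiers in the count table, 115 matched, and 107 reached a mean of at least 1 CPM (the count scaled to a library of 1e6 counts) in some group: 13 mitochondrially encoded and 94 nuclear. The other 8 (ATP5MGL, COX4I2, COX6A2, COX6B2, COX7A1, COX7B2, COX8C and NDUFA4L2) stayed below that level in every group. The stems also take in assembly factors (NDUFAF and SDHAF genes), which build the complexes without being part of them.

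Oxidative phosphorylation passes electrons from NADH and succinate through complexes I to IV in the inner mitochondrial membrane, and the ATP synthase uses the resulting proton gradient to make ATP. Mitochondrial DNA encodes a small core of these subunits, transcribed as long polycistronic RNAs from both strands and then cut apart, whereas nuclear DNA encodes complex II entirely and most subunits of the other complexes. In colonic epithelium and its tumours the pathway works beside glycolysis, and the balance of nuclear and mitochondrial transcripts is set by separate transcription systems.

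All cultures were HT29 cells treated for 24 h. The vehicle group received DMSO, given as 0.1% in the sample labels and as 2% in the series text, a difference that was not settled. No DMSO percentage is recorded for the extract libraries, so whether their cultures also received DMSO is not known here. Hot-water extracts were made of Saposhnikoviae Radix and Menthae Herba, which are each 1 herb, and of the traditional formulas Okbyeongpung-san, Soyo-san, Guibi-tang and Saengmaek-san, and were each applied at 500, 100 and 20 µg/mL, here called the high, medium and low dose, with 3 libraries per dose. Soshiho-tang, a further formula, had 1 library per dose and entered no test. Whether the 3 libraries of a group came from separate cultures is not stated, so p-values reflect only how far these libraries scatter, and that scatter may be technical.

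The 60 libraries held 19495005 to 41934333 counts each. The first principal component of expression, 13.2% of the variance, changed sign once along the submitters' library numbers and divided the libraries into 31 earlier and 29 later ones; what the numbers record is not given in the sources used here. Vehicle libraries carry numbers of a separate series, starting with B1, and were placed before all others. Vehicle and both single herbs fell wholly among the earlier libraries and Soyo-san, Okbyeongpung-san and Soshiho-tang wholly among the later ones, with Guibi-tang and Saengmaek-san on both sides. For Soyo-san and Okbyeongpung-san the position in the numbering and the treatment therefore cannot be told apart without the other formulas. Of 12 colon epithelium markers, 11 were at 1 CPM or more, and their summed level was 11529 to 12190 CPM in vehicle and 11066 to 15123 CPM after treatment. Markers of fibroblasts summed to 1.4 to 3.29 CPM and those of endothelium to 0.863 to 2 CPM over all libraries, while 6 leukocyte markers summed to 9.71 to 14.9 CPM. No marker was at 0 in every library.

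Mitochondrially encoded genes far exceeded nuclear ones per unit of length in vehicle cells. Levels in CPM per kilobase of exon ran from 2036 for MT-ND6, a complex I subunit and the only one of the 13 annotated on the minus strand, to 20893 ± 999 (SD, n = 3) for MT-CO2, a catalytic subunit of cytochrome c oxidase. Nuclear genes had a median of 22.7 CPM per kilobase against 8372 for the mitochondrially encoded genes, a ratio of 369 between the medians. Within each complex the highest nuclear gene per length was NDUFS5 for complex I, SDHD for complex II, UQCR10 for complex III, COX8A for complex IV and ATP5F1B for the ATP synthase. COX8A was the highest nuclear member of all at 343 CPM per kilobase. The lowest was NDUFC2-KCTD14, a readthrough of a complex I gene into its neighbour, whose expected count rounded to 0 in 30 of 60 libraries and is not described further.

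Together the 13 mitochondrially encoded genes took 11.3%, 11.4% and 12.1% of all counts in the 3 vehicle libraries. Treated libraries held 8.65% to 12.6%, with a median of 9.78%, and 55 of the 57 lay below the lowest vehicle library. The exceptions were 1 library each of Guibi-tang at the low dose (12.6%) and Okbyeongpung-san at the medium dose (12.4%), both above every vehicle library. All 18 group means were lower than the vehicle mean of 11.6% ± 0.407 (SD, n = 3), with differences of -0.932 to -2.58 percentage points (median -1.53), and the lowest mean was that of Okbyeongpung-san at the low dose, 9.02% ± 0.0465 (SD, n = 3). In 16 of the 18 groups every library lay below the lowest vehicle library. Each of these 16 reached the smallest p that 3 against 3 libraries allow (two-sided exact permutation p = 0.1; 0.113 after Benjamini-Hochberg adjustment over 18 groups), so no group passed a threshold of 0.05. The 18 comparisons share the same 3 vehicle libraries. The single Soshiho-tang libraries held 9.23%, 10.1% and 9.12% at the high, medium and low dose.

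The lower share was also present among earlier-numbered libraries, where 27 of 28 treated libraries lay below the lowest vehicle library. These are bulk libraries, in which fewer cells carrying a transcript and less of it per cell cannot be told apart. Sequencing depth was 29809845 to 38507867 counts in vehicle and 23351126 to 41934333 in the earlier treated libraries, so their ranges overlapped; the part of depth in the result was not tested.

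The nuclear genes took a much smaller and nearly constant share. They held 0.655% to 0.789% of counts in treated libraries (median 0.743%), against 0.718% to 0.731% in vehicle. Group means differed from the vehicle mean by -0.0245 to 0.0389 percentage points, and 2 of 18, both with Okbyeongpung-san, were below it. No group lay wholly below vehicle. The libraries of Menthae Herba at the high and medium dose, Saposhnikoviae Radix at all doses, Saengmaek-san at the high and Guibi-tang at the medium dose all lay above it (two-sided exact permutation p = 0.1, the smallest possible). The ratio of mitochondrially encoded to nuclear counts was accordingly lower than vehicle in all 18 group means, by 1.1 to 3.67, and the treated libraries ranged from 11.3 to 19. Shares within a library sum to a fixed total, so the mitochondrially encoded share, the nuclear share and their ratio are not independent. The share of the 2 mitochondrial ribosomal RNAs was below the vehicle mean in 13 of 18 groups, with differences of -0.293 to 0.0722 percentage points, and it was 1.1% to 1.48% in earlier against 1.3% to 1.61% in later libraries.

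**Figure D1:**
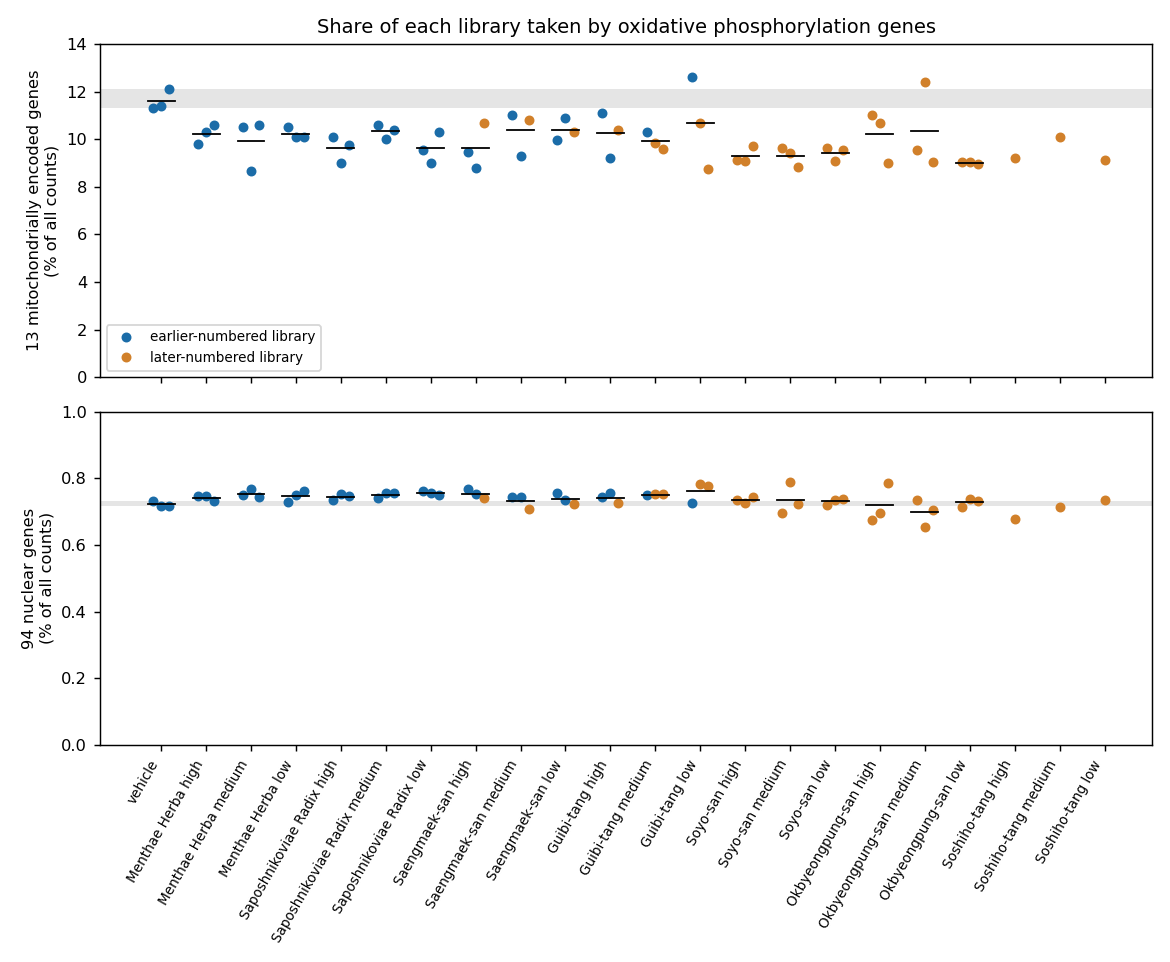
Share of all counts from the 13 mitochondrially encoded genes (upper panel) and the 94 nuclear genes (lower panel) in each library, in percent, by group; dots are libraries coloured by their place in the numbering, bars are means of 3 libraries and the grey band is the range of the 3 vehicle libraries. In the upper panel 55 of 57 treated libraries lie below the band, while in the lower panel the treated libraries lie on both sides of it.

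Gene by gene, mitochondrially encoded transcripts were lower than vehicle in most comparisons, by amounts that mostly missed the threshold. Of 234 tests (13 genes in 18 comparisons), 222 had a negative log2 fold change, 23 passed as lower and 0 as higher (edgeR quasi-likelihood test, adjusted p under 0.05 over 17049 genes). The median over the 13 genes was negative in all 18 comparisons, from -0.12 for Guibi-tang at the low dose to -0.38 for Okbyeongpung-san at the low dose, while the median of all genes tested stayed between -0.004 and 0.009. Calls fell in 5 comparisons: 8 genes with Okbyeongpung-san at the low dose, 7, 4 and 3 genes with Soyo-san at the high, medium and low dose, and 1 gene with Menthae Herba at the high dose. Among all genes, 4.05% were called lower and 4.74% higher with Okbyeongpung-san at the low dose. For Soyo-san these shares were 6.43% and 8.03% at the high, 4.29% and 5.57% at the medium and 1.89% and 2.04% at the low dose, and for Menthae Herba at the high dose 3.98% and 4.59%.

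In the remaining comparisons 0 of the 13 genes were called, and in most of them fewer genes of any kind were called. For Okbyeongpung-san 3.03% of all genes were lower and 4.36% higher at the high dose, and 1.58% and 2.17% at the medium dose. For Guibi-tang the lower and higher shares were 0.974% and 1.28% at the high, 0.499% and 0.575% at the medium and 0.346% and 0.504% at the low dose, and for Saengmaek-san 1.89% and 2.39% at the high dose. In comparisons where no member of either genome was called, the share called in either direction was 0.416% and 0.0938% for Saengmaek-san at the medium and low dose, 0.739% and 0.0587% for Menthae Herba at the same doses, and 0.499%, 0.0293% and 0.17% for Saposhnikoviae Radix at the high, medium and low dose. Unadjusted p was under 0.05 in 99 of the 234 tests. With Saposhnikoviae Radix at the high dose, for example, 9 of the 13 genes were under that value and none passed the adjustment.

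Cytochrome c oxidase, the terminal enzyme of the chain, has its 3 catalytic core subunits encoded in mitochondrial DNA. MT-CO1, which carries the oxygen-reducing centre, measured 23763, 23391 and 23807 CPM in vehicle, 19422, 18581 and 19137 CPM with Soyo-san at the high dose and 19215, 17241 and 18466 CPM with Okbyeongpung-san at the low dose. Every one of these treated libraries was below every vehicle library. MT-CO1 fell by 0.31 ± 0.10 (SE) on the log2 scale in the first comparison (adjusted p = 0.0257) and by 0.37 ± 0.10 in the second (adjusted p = 0.0132), and it was also lower with Soyo-san at the medium and low dose. The MT-CO1 call held with the numbering term for Okbyeongpung-san (adjusted p = 0.0455) and was lost at the 3 doses of Soyo-san (0.0681 to 0.127), which were also lost without vehicle replicate 1 or 3 (0.0647 to 0.0947). MT-CO2 measured 13514, 14558 and 14800 CPM in vehicle against 10606, 9927 and 10301 CPM with Okbyeongpung-san at the low dose. The groups did not overlap, and MT-CO2 fell by 0.48 ± 0.11 (adjusted p = 0.00688). MT-CO3 measured 15184, 15288 and 14866 CPM in vehicle and 12191, 11273 and 11198 CPM with Okbyeongpung-san at the low dose (log2 fold change -0.39 ± 0.09, adjusted p = 0.0029). This was the only call of a mitochondrially encoded gene that held in all 16 alternative analyses of it. MT-CO3 was also the 1 gene called with Menthae Herba at the high dose, where it measured 12537, 12193 and 13085 CPM (log2 fold change -0.26 ± 0.09, adjusted p = 0.0453); that call was lost without any one of the vehicle libraries (adjusted p = 0.0794 to 0.113), and held among earlier-numbered libraries alone (adjusted p = 0.0105).

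Complex I, the NADH dehydrogenase, takes 7 membrane subunits from mitochondrial DNA. MT-ND1 measured 6403, 6036 and 7431 CPM in vehicle and 4577, 4571 and 4610 CPM with Okbyeongpung-san at the low dose, where it fell by 0.53 ± 0.15 (adjusted p = 0.0175). The treated values lay close together and well under the lowest vehicle library; without vehicle replicate 3, the highest, the adjusted p was 0.0958. MT-ND5 measured 6345, 6004 and 6292 CPM in vehicle and 4738, 4799 and 4877 CPM with Soyo-san at the high dose (log2 fold change -0.37 ± 0.10, adjusted p = 0.0116). MT-ND3 was called with Soyo-san at the high dose (1183, 1271 and 1492 CPM against 1631, 1692 and 1932 CPM in vehicle) and with Okbyeongpung-san at the low dose. With the numbering term the call of MT-ND5 with Soyo-san at the high dose (adjusted p = 0.0518) and both calls of MT-ND3 (0.0887 and 0.0593) were lost, those of MT-ND3 also without vehicle replicate 3 (0.0874 and 0.0641). In contrast MT-ND2 measured 5968, 5840 and 6729 CPM in vehicle and 5679, 5562 and 6160 CPM with Soyo-san at the high dose, so that the groups overlapped, and it was called in no comparison. MT-ND6 was not called either: it measured 1144, 1023 and 1039 CPM in vehicle and 817, 935 and 1075 CPM with Soyo-san at the high dose.

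MT-CYB, the cytochrome b of complex III, measured 9179, 9103 and 10375 CPM in vehicle, 7587, 7453 and 7920 CPM with Soyo-san at the high dose and 7504, 7527 and 6980 CPM with Okbyeongpung-san at the low dose. The treated libraries lay below every vehicle library, and the gene was called in both comparisons (adjusted p = 0.0487 and 0.0272). The Soyo-san call of MT-CYB was lost with the numbering term (adjusted p = 0.121) and without any 1 vehicle library (0.0579 to 0.189), and the Okbyeongpung-san call with that term (0.0739) and without vehicle replicate 3 (0.122). MT-ATP6, part of the proton channel of the ATP synthase, measured 11765, 12563 and 13802 CPM in vehicle and 8809, 9301 and 10361 CPM with Okbyeongpung-san at the low dose but passed in none of the 18 comparisons. Its neighbour MT-ATP8 measured 1599, 2069 and 1790 CPM in vehicle and 1688, 1786 and 1917 CPM in the same treated group, where the groups overlapped. In all, MT-ND1, MT-ND3, MT-ND4L, MT-ND5, MT-CO1, MT-CO2, MT-CO3 and MT-CYB were called at least once, and MT-ND2, MT-ND4, MT-ND6, MT-ATP6 and MT-ATP8 never.

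The counts of calls depended on single libraries. With Soyo-san at the high dose the 7 calls became 2 and 3 without Soyo-san replicate 1 or 2, and 4 without vehicle replicate 1 or 3. With the numbering term 1 was called at the high, 0 at the medium and 1 at the low dose of Soyo-san, and 4 with Okbyeongpung-san at the low dose. In the latter group the median over the 13 genes was -0.389 with the term and -0.381 without it. For Soyo-san at the high, medium and low dose it was -0.341, -0.328 and -0.3 with the term. Without the term these medians were -0.32, -0.314 and -0.329. At the medium dose the 4 calls became 0 without Soyo-san replicate 2 or 3 or vehicle replicate 1, and 1 without vehicle replicate 2 or 3. At the low dose the 3 calls became 1 or 0 without any 1 library of either group. With Okbyeongpung-san at the low dose the 8 calls became 5 without any 1 of its own libraries and 4 without vehicle replicate 3. The leave-outs of single treated libraries were chosen after seeing the data.

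**Figure D2:**
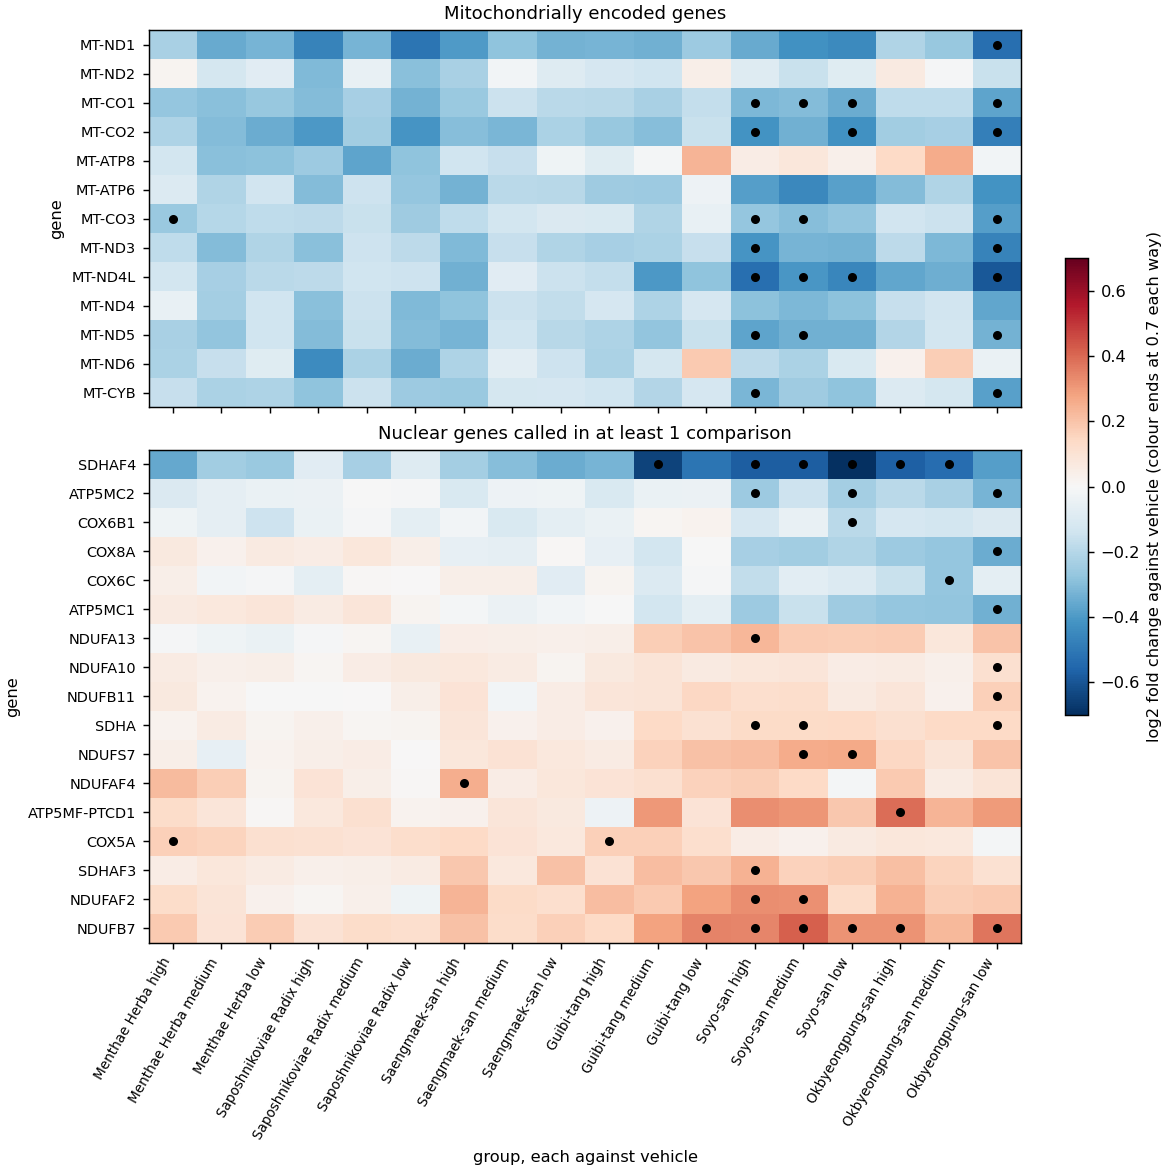
Log2 fold change against vehicle (colour; blue is lower, red is higher) of the 13 mitochondrially encoded genes, in the order of their position, and of 17 nuclear genes called at least once, by group; black dots mark adjusted p under 0.05. Mitochondrially encoded genes are blue in 222 of 234 cells, with MT-ATP8, MT-ND2 and MT-ND6 the genes with red cells, and the dots of both panels gather in the Soyo-san and Okbyeongpung-san columns.

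A single comparison of the mean of all 18 treated groups with vehicle gave the same direction for all 13 mitochondrially encoded genes, with a median log2 fold change of -0.24, about 15.6% lower. It called 6 of 13 lower and 0 higher, beside 2.96% of all genes lower and 2.66% higher. The 6 were MT-CO2 (-0.31 ± 0.08, adjusted p = 0.0152), MT-CO1 (-0.25 ± 0.07, adjusted p = 0.0215), MT-ND1 (-0.35 ± 0.10, adjusted p = 0.0316), MT-ND5 (-0.24 ± 0.07, adjusted p = 0.034), MT-CO3 (-0.20 ± 0.06, adjusted p = 0.0452) and MT-ND4L (-0.28 ± 0.09, adjusted p = 0.049). MT-ND3 missed narrowly at -0.26 ± 0.08 (adjusted p = 0.0549). The smallest differences were those of MT-ATP8 (-0.07 ± 0.16), MT-ND2 (-0.10 ± 0.11) and MT-ND6 (-0.14 ± 0.15). Leaving out vehicle replicate 1, 2 or 3 reduced the 6 calls to 0 each time, and leaving out every treated replicate 2 left 3. The earlier-numbered libraries alone were fitted for vehicle and the 10 treated groups with at least 2 such libraries. Guibi-tang at the medium and low dose had 1 each and was left out, including the low-dose library with a share of 12.6%. In the mean of those 10 groups MT-ND1, MT-CO1, MT-CO2, MT-CO3 and MT-ND5 were called lower, with a median of -0.23 over the 13 genes. With a term for the position in the numbering, fitted to all 18 treated groups, 4 of the 13 were called and the median was -0.24.

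The nuclear members showed no such common shift. Over 1692 tests against vehicle (94 genes in 18 comparisons), 23 were called higher and 13 lower, 2.13% in all, beside 3.73% of all genes. The median over the 94 genes lay between -0.04 (Okbyeongpung-san at the medium dose) and 0.09 (Guibi-tang at the low dose) and was above 0 in 16 of 18 comparisons. Of the 94 genes, 76 were never called, 12 were called only higher and 6 only lower. In the mean of all treated groups the median was 0.03, and only NDUFB7 (higher) and SDHAF4 (lower) were called, beside the 2.66% and 2.96% given above. Without vehicle replicate 1 only 1 of these calls was made, and without vehicle replicate 2 or 3 none.

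**Figure D3:**
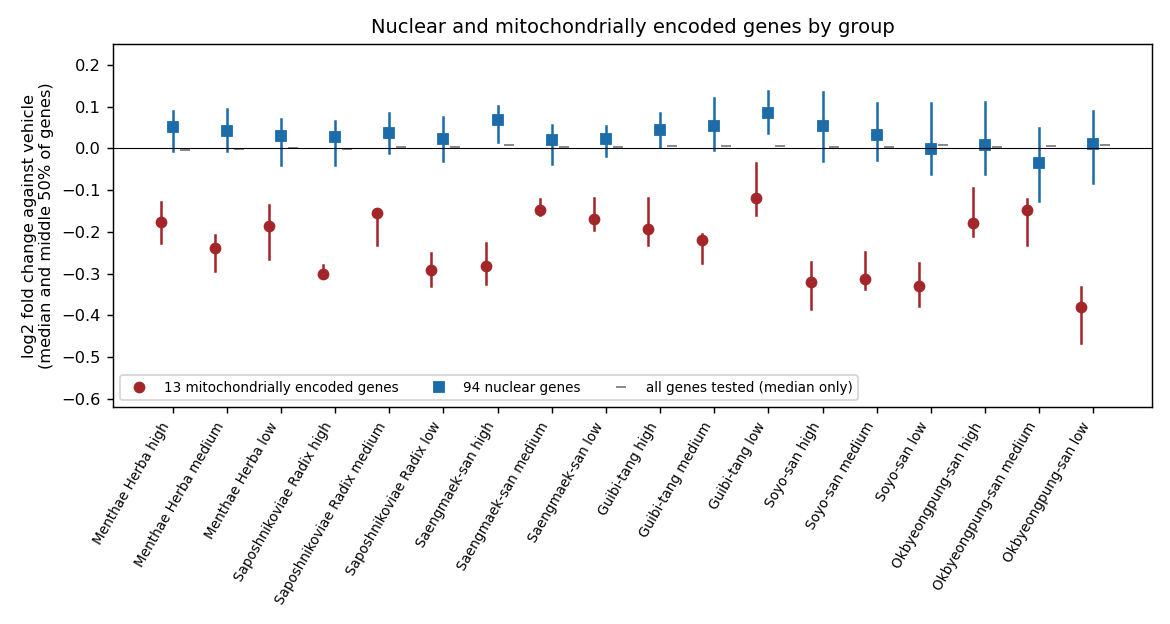
Median log2 fold change against vehicle of the mitochondrially encoded genes (red circles), the nuclear genes (blue squares) and all genes tested (grey dashes) in each group, with lines spanning the middle 50% of the genes of each set. The red medians lie between -0.38 and -0.12, the blue ones between -0.04 and 0.09, and the grey ones at or near 0.

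NDUFB7, an accessory subunit of complex I on the intermembrane-space side, was the nuclear member most often called higher, in 6 comparisons. It measured 22.2, 20.7 and 21 CPM in vehicle. With Soyo-san it measured 26.2, 27.3 and 27.6 CPM at the high dose, 27.1, 33.8 and 24.7 CPM at the medium dose and 24.9, 27.5 and 27 CPM at the low dose. Each of these 9 libraries was above every vehicle library, and the log2 fold changes were 0.34 ± 0.09, 0.42 ± 0.09 and 0.31 ± 0.09 (adjusted p = 0.0102, 0.00348 and 0.043). With Okbyeongpung-san NDUFB7 rose at the high dose (23.7, 26.8 and 29 CPM, adjusted p = 0.0332) and at the low dose (25.5, 27 and 30.2 CPM, adjusted p = 0.008). With Guibi-tang at the low dose it measured 24.7, 29.4 and 27.5 CPM (log2 fold change 0.35 ± 0.09, adjusted p = 0.0465), and the Soshiho-tang libraries held 24.7, 27 and 28 CPM. In the earlier-numbered extracts the Menthae Herba groups averaged 22.7 to 24.2 CPM and the Saposhnikoviae Radix groups 22.8 to 23.2 CPM, and none was called, although Menthae Herba at the high dose passed among earlier-numbered libraries alone (adjusted p = 0.0426). With the numbering term all 6 calls were lost (adjusted p = 0.218 to 0.653), and the later libraries were higher by 0.21 ± 0.05. Without any 1 vehicle library the calls with Guibi-tang, with Soyo-san at the low dose and with Okbyeongpung-san at the high dose were lost as well (adjusted p = 0.0674 to 0.172).

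SDHAF4, an assembly factor that helps insert the flavoprotein subunit into complex II, was the member most often called lower, in 6 comparisons. It is a low-abundance gene, at 2.99, 3.35 and 3.79 CPM in vehicle. With Soyo-san it measured 1.73, 2.72 and 2.41 CPM at the high dose, 2.22, 2.3 and 2.28 CPM at the medium dose and 2.26, 1.77 and 1.54 CPM at the low dose. No Soyo-san library reached the vehicle range, and SDHAF4 fell by 0.58 ± 0.15, 0.58 ± 0.15 and 0.86 ± 0.15 on the log2 scale (adjusted p = 0.00631, 0.00977 and 0.000257). With Guibi-tang at the medium dose it measured 2.21, 2.16 and 2.1 CPM (-0.65 ± 0.15, adjusted p = 0.0157), and with Okbyeongpung-san 2, 2.48 and 2.36 CPM at the high and 2.4, 2.29 and 2.31 CPM at the medium dose (adjusted p = 0.0152 and 0.0295). The call at the low dose of Soyo-san held in all 16 alternatives, the numbering term included, whereas that term removed the other 5 calls (adjusted p = 0.0944 to 0.286). Without vehicle replicate 3, the highest, the calls with Guibi-tang, with Soyo-san at the medium dose and with Okbyeongpung-san at both doses were also lost (adjusted p = 0.0637 to 0.161), and the Okbyeongpung-san call at the medium dose also without vehicle replicate 2 (0.0619). In Saposhnikoviae Radix libraries SDHAF4 stayed at 2.43 to 3.6 CPM and overlapped vehicle at every dose.

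The sequences around the start sites of these genes, which moved in opposite directions in the same groups, are shown because nuclear genes of the pathway are known for short NRF1 and ETS-family motifs there. They come from RefSeq on GRCh38.p14 and run 5′ to 3′ from 250 bases before to 50 after the start, SDHAF4 at chr6:70566680-70566979 on the plus strand and NDUFB7 at chr19:14572017-14572316 on the minus strand; capitals mark a match to CCGGAAG on either strand.
SDHAF4: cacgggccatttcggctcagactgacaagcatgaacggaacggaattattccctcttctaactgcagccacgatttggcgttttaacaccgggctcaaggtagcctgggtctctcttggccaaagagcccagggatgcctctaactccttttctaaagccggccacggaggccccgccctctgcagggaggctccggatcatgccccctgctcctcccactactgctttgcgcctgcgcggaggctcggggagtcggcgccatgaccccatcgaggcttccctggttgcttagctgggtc
NDUFB7: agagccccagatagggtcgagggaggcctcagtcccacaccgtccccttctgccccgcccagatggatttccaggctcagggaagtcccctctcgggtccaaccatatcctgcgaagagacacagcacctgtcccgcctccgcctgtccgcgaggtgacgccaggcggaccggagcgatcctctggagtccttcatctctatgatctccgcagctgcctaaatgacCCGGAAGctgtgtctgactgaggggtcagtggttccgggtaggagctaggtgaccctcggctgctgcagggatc
Of the 94 nuclear members, 78 had a promoter in that table. The NRF1 core CGCATGCG, the same on both strands, was present in 12 of the 78 (15.4%) against 2.02% of 35116 promoters of this length, and the ETS core CCGGAAG, on either strand, in 25 (32.1%) against 10.3%. The ETS core occurs once in the NDUFB7 window, and neither motif has a match in the SDHAF4 window. Members with the NRF1 core had a median log2 fold change of 0.03 in the mean of all treated groups, as did those without it, and the medians with and without the ETS core were 0.03 and 0.02. These matches describe letters only.

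The other nuclear genes called higher were mostly complex I and II genes in Soyo-san and Okbyeongpung-san groups. SDHA, the flavoprotein that oxidises succinate, measured 261, 258 and 251 CPM in vehicle, 292, 281 and 273 CPM with Soyo-san at the high dose and 284, 280 and 282 CPM at the medium dose. The groups did not overlap, and the log2 fold change was 0.14 ± 0.04 in both (adjusted p = 0.0271 and 0.0351). NDUFAF2, an assembly factor of complex I, measured 18.5, 19.1 and 19.1 CPM in vehicle and 25.6, 22.2 and 23.2 CPM with Soyo-san at the high dose (0.33 ± 0.11, adjusted p = 0.0327). NDUFS7, an iron-sulfur core subunit, rose with Soyo-san at the medium and low dose (0.26 ± 0.08 and 0.27 ± 0.08, adjusted p = 0.027 and 0.041). NDUFA13 and SDHAF3 were called once each with Soyo-san at the high dose, NDUFA10 and NDUFB11 once each with Okbyeongpung-san at the low dose, and ATP5MF-PTCD1, a readthrough whose reads the counting could divide with ATP5MF, once with Okbyeongpung-san at the high dose.

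These counts also moved with single libraries and with the numbering. With Soyo-san at the high dose 6 nuclear genes were higher: 1 was called without Soyo-san replicate 1, 3 without Soyo-san replicate 2 or vehicle replicate 1 or 3, and 2 without vehicle replicate 2. The 4 at the medium dose became 0 without Soyo-san replicate 2, 1 without Soyo-san replicate 1 or vehicle replicate 2 or 3, and 2 without vehicle replicate 1. The 5 higher with Okbyeongpung-san at the low dose became 0 and 3 without its replicate 3 or 2, 1 without vehicle replicate 1 and 2 without vehicle replicate 2 or 3. With the numbering term no nuclear gene was called higher in any Soyo-san group, and none of the 5 with Okbyeongpung-san at the low dose kept its call; the 1 gene called there was NDUFS1, at 0.15 with the term and 0.04 without it (adjusted p = 0.0429 and 0.616).

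Outside those groups the genes called higher were NDUFB7 with Guibi-tang at the low dose, given above, COX5A and NDUFAF4. COX5A, a nuclear subunit of cytochrome c oxidase, measured 107, 106 and 98 CPM in vehicle, 118, 118 and 114 CPM with Menthae Herba at the high dose and 120, 118 and 111 CPM with Guibi-tang at the high dose. All 6 treated libraries were above the vehicle range, and the log2 fold change was 0.17 ± 0.05 in both (adjusted p = 0.0154 and 0.0326). COX5A was called in the Menthae Herba comparison with the numbering term and among earlier-numbered libraries too; without vehicle replicate 3, the lowest, the adjusted p was 0.144 there and 0.229 for Guibi-tang, whose call was also lost without vehicle replicate 1 or 2 (0.0553 and 0.0544). NDUFAF4, an assembly factor of complex I, measured 18.7, 17.5 and 17.6 CPM in vehicle and 20.3, 20.7 and 23.4 CPM with Saengmaek-san at the high dose (0.25 ± 0.08, adjusted p = 0.0433), a call lost without any 1 vehicle library (adjusted p = 0.101 to 0.131).

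Lower nuclear genes, besides SDHAF4, belonged to complex IV and the ATP synthase. ATP5MC2, 1 of the genes for the membrane ring subunit c of the ATP synthase, measured 146, 136 and 150 CPM in vehicle and 110, 114 and 120 CPM with Okbyeongpung-san at the low dose. The groups were well apart, and ATP5MC2 fell by 0.33 ± 0.07 (adjusted p = 0.003), a call that held in 15 of 16 alternatives and was lost with the numbering term (adjusted p = 0.0687). It was also lower with Soyo-san at the high and low dose (121, 109 and 132 CPM, and 125, 112 and 129 CPM; adjusted p = 0.0136 and 0.0463). Those Soyo-san calls held in 12 and 9 of 16 alternatives, and neither was made with the numbering term. ATP5MC1, another gene for the same ring subunit, measured 51.7, 49.1 and 54.5 CPM in vehicle and 42.1, 42.9 and 38.3 CPM with Okbyeongpung-san at the low dose (-0.34 ± 0.10, adjusted p = 0.0302). COX8A, the small subunit VIII in its general form, fell there too, from 183, 166 and 172 CPM to 133, 141 and 135 CPM (-0.35 ± 0.09, adjusted p = 0.00803). COX6B1 was lower with Soyo-san at the low dose (179, 189 and 182 CPM against 205, 207 and 215 CPM; adjusted p = 0.041), and COX6C with Okbyeongpung-san at the medium dose (32.6, 30 and 31.3 CPM against 38.1, 37.1 and 38.1 CPM; adjusted p = 0.0463). COX6B1 was not called without any 1 vehicle library (adjusted p = 0.0654 to 0.149), nor COX6C (0.0741 to 0.131), and ATP5MC1 was not called without vehicle replicate 1 or 3 (0.075 and 0.111). With the numbering term COX6B1 kept its call (adjusted p = 0.0442), whereas COX8A, COX6C and ATP5MC1 lost theirs (adjusted p = 0.389, 0.378 and 0.921). Of 3 genes lower with Soyo-san at the low dose, 1 was called without Soyo-san replicate 1 or 2 or vehicle replicate 1 or 3.

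**Figure D4:**
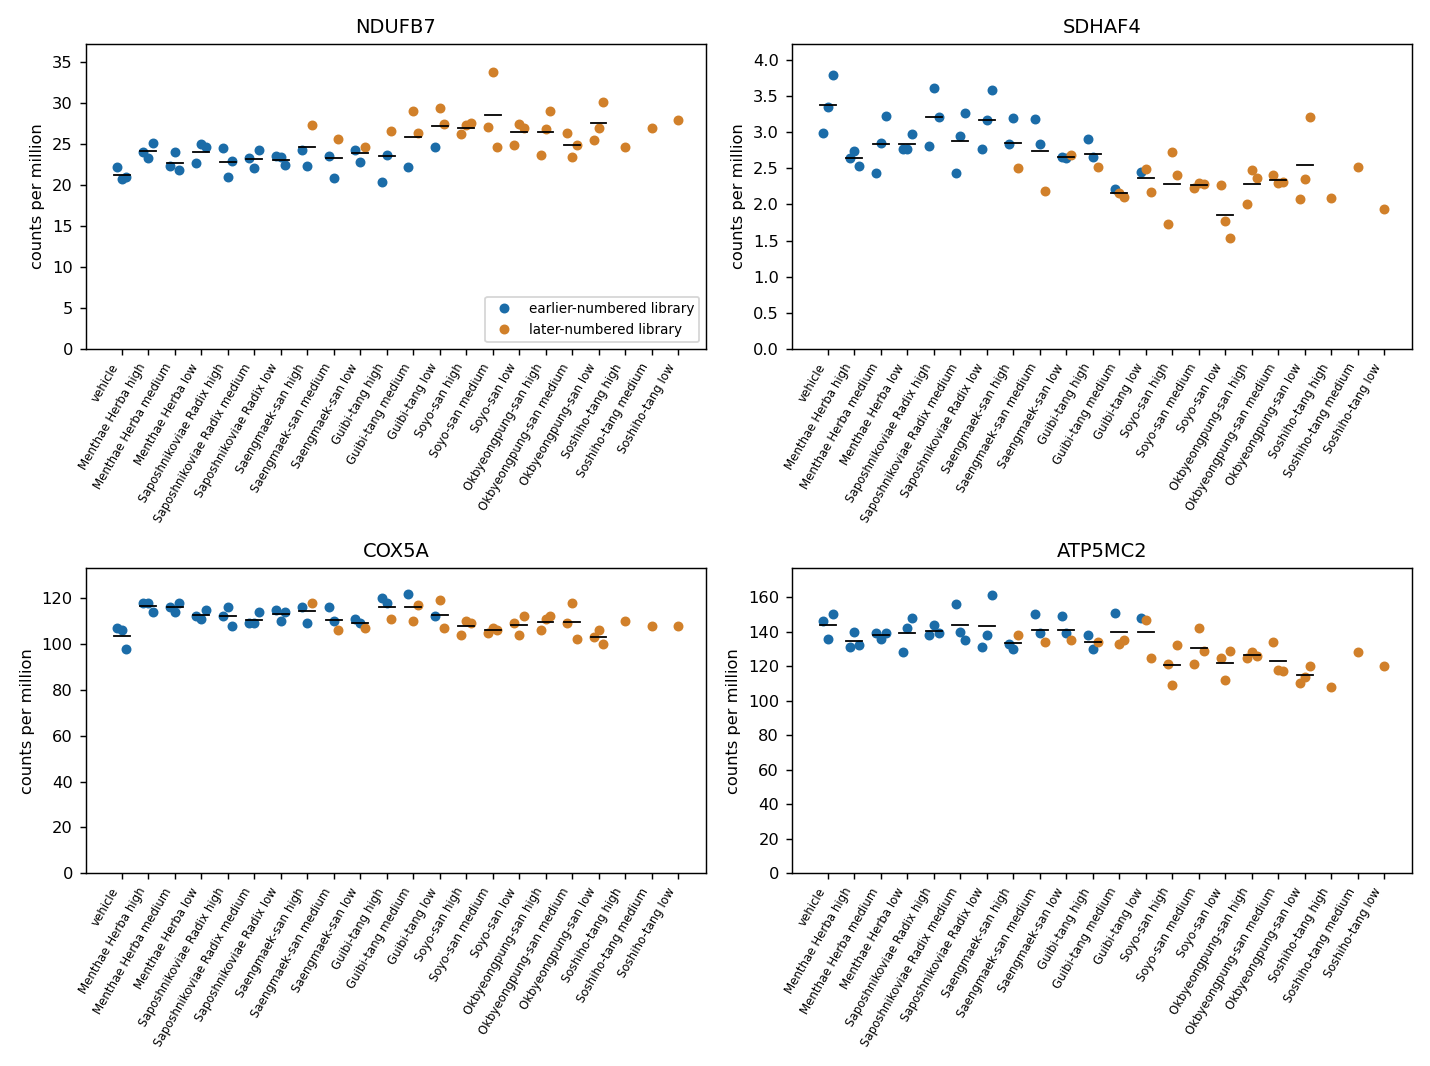
Level of NDUFB7, SDHAF4, COX5A and ATP5MC2 in each library, in CPM on axes that start at 0, by group; dots are libraries coloured by their place in the numbering and bars are means of 3 libraries. NDUFB7 lies at 20.7 to 22.2 in vehicle and at 24.7 to 33.8 with Soyo-san at the medium dose, and SDHAF4 at 2.99 to 3.79 in vehicle and at 1.54 to 2.26 with Soyo-san at the low dose.

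Complex IV subunits with tissue-specific forms were expressed in the general form. COX4I1, the ubiquitous subunit IV, ran from 133 to 166 CPM over the 60 libraries, COX6A1 from 134 to 182 CPM, COX6B1 from 179 to 234 CPM and COX7A2 from 47.9 to 75.1 CPM, whereas the heart, muscle, lung or testis forms COX4I2, COX6A2, COX6B2 and COX7A1 were under the 1 CPM level. NDUFA4, a subunit of cytochrome c oxidase despite its name, ran from 68.2 to 97.7 CPM while its hypoxia-inducible counterpart NDUFA4L2 did not reach 1 CPM in any group. COX7A2L, which links complexes III and IV, ran from 53.3 to 65.9 CPM. ATP5IF1, the inhibitor of the reversed ATP synthase, ran from 79 to 108 CPM. In the mean of all treated groups COX4I1 differed from vehicle by 0.07 ± 0.04, COX6A1 by -0.06 ± 0.05, COX7A2L by -0.03 ± 0.03, NDUFA4 by 0.02 ± 0.06 and ATP5IF1 by 0.00085 ± 0.05, and none was called.

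Dose was compared directly within each extract. Between the high and the low dose, 0 of 13 mitochondrially encoded and 0 of 94 nuclear genes were called in any of the 6 extracts, and unadjusted p was under 0.05 in 4 of 78 and 15 of 564 tests; DESeq2 called none either. All 4 of the former were with Okbyeongpung-san, whose 13 mitochondrially encoded genes were all higher at the high than at the low dose (median 0.21). The share of all genes called in either direction was 2.36% for Menthae Herba, 0.0293% for Saposhnikoviae Radix, 0.0235% for Saengmaek-san, 0.352% for Guibi-tang, 0.129% for Soyo-san and 0.00587% for Okbyeongpung-san. Extracts were likewise compared at the high dose in 3 pairs, and 0 members were called. Menthae Herba against Saposhnikoviae Radix called 1.1% of all genes, Guibi-tang against Saengmaek-san 0.37% and Soyo-san against Okbyeongpung-san 0%. Unadjusted p was under 0.05 in 1 of 39 tests of mitochondrially encoded and 4 of 282 tests of nuclear genes, and DESeq2 again called none. The median over the mitochondrially encoded genes was 0.12 for the first pair, 0.08 for the second and -0.15 for the third. So the called falls with Soyo-san at the high dose were not shown to differ from the values with Okbyeongpung-san at that dose, where MT-CO1, MT-CO2 and the other 11 were not called against vehicle.

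More members differed by position in the numbering than were called in any comparison with vehicle. The split of the libraries was itself drawn from these data, so the differences between later and earlier libraries, fitted beside the groups, are given as a description. Of the 94 nuclear genes, 33 were higher and 17 lower in later libraries by the same threshold, beside 15.9% and 13.7% of all genes, while 1 of the 13 mitochondrially encoded genes was higher and 1 lower. Complex I subunits were mostly higher (20 higher and 4 lower of 37, median log2 difference 0.11), led by NDUFS6 (0.36 ± 0.04) and NDUFS5 (0.33 ± 0.03), with NDUFB2 (-0.38 ± 0.05) the lowest. Complex IV subunits were not (0 higher and 4 lower of 14 tested): COX7C, COX8A, COX7A2 and NDUFA4 were the 4. Complex II divided evenly, with SDHA and SDHB higher and SDHC and SDHD lower.

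More genes of any kind, nuclear members among them, were called among the earlier-numbered libraries alone. There vehicle and treatment share the sign of the first principal component. In 10 comparisons with vehicle 48 tests were higher and 9 lower, against 3 and 0 in the same comparisons with all libraries; 13 of the 48 were with Menthae Herba at the high dose (beside 8.26% of all genes higher and 6.9% lower in these libraries) and 13 with Saengmaek-san at the high dose (4.82% and 4.31%). Menthae Herba at the medium and low dose had 7 and 4 higher and 1 and 2 lower, beside 2.8% and 1.54% of all genes higher and 2.33% and 1.74% lower. In the other 6 comparisons 0 to 3 nuclear genes were higher and 0 or 1 lower, beside 0.0821% to 2.45% of all genes higher and 0.217% to 1.8% lower. In the mean of the 10 treated groups fitted among these libraries 15 nuclear genes were higher and 1 lower, beside 6.18% and 5.67% of all genes. Those with the smallest p were SDHD, a membrane anchor of complex II (0.15 ± 0.03, adjusted p = 0.000314), COX5A (0.13 ± 0.03, adjusted p = 0.00192) and NDUFB2 (0.18 ± 0.04, adjusted p = 0.0021), and the lower one was NDUFA3 (-0.18 ± 0.04, adjusted p = 0.00425). SDHD, NDUFB2 and NDUFA3 were named after their values were seen. Mitochondrially encoded genes were called lower in 13 tests there, against 1 with all libraries, 7 of them with Saengmaek-san at the high dose, where 2 earlier libraries remained, and 2 each with Menthae Herba and Saposhnikoviae Radix at the high dose and Saposhnikoviae Radix at the low dose (1.5% of all genes lower in each of the Saposhnikoviae Radix comparisons).

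The mitochondrially encoded genes that stood apart between later and earlier libraries were members of overlapping pairs. MT-ATP8 and MT-ATP6 lie on one bicistronic transcript and share 46 bases, 22.2% of the 207 bases of MT-ATP8, and MT-ND4L and MT-ND4 share 7 bases. Reads that match both partners, across a shared stretch, can be divided between them only by the counting program's estimate. The shared stretches of the reference mitochondrial genome, chrM:8527-8572 and chrM:10760-10766 on GRCh38, plus strand, 5′ to 3′, read as follows, with the start codon of the downstream gene in capitals.
MT-ATP8/MT-ATP6: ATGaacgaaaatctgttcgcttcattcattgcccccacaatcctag
MT-ND4L/MT-ND4: ATGctaa
MT-ATP8 counts per 100 MT-ATP6 counts were 11 to 17.7 in earlier libraries (median 13.6) and 17.4 to 23.2 in later ones (median 19.6). The ranges met only at their ends. Within Saengmaek-san and Guibi-tang, which had libraries of both kinds, the ranges were 11 to 15.1 in 10 earlier and 17.5 to 23.2 in 8 later libraries and did not overlap. MT-ND4L counts per 100 MT-ND4 counts moved the other way, from 8.55 to 12.1 (median 10.3) in earlier to 6.66 to 10.3 (median 8.7) in later libraries. In the fit MT-ATP8 was 0.47 ± 0.12 higher and MT-ND4L 0.30 ± 0.06 lower in later libraries, while MT-ATP6 (-0.12 ± 0.09) and MT-ND4 (-0.05 ± 0.08) were not called.

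The 4 calls of MT-ND4L as lower against vehicle were all in later-numbered groups, at 1102, 1117 and 1187 CPM with Soyo-san at the high dose against 1666, 1588 and 1655 CPM in vehicle (log2 fold change -0.53 ± 0.13, adjusted p = 0.00418). With the numbering term none of the 4 passed (adjusted p = 0.144 to 0.691), and the calls at the medium and low dose of Soyo-san were also lost without any 1 vehicle library (0.0527 to 0.0956). MT-CO2 behaved otherwise with that term: its calls with Soyo-san at the high and low dose and with Okbyeongpung-san at the low dose all passed. Its call with Soyo-san at the low dose held in 10 of 16 alternatives and was lost without vehicle replicate 2 or 3. The calls of MT-CO2 with Soyo-san at the high and Okbyeongpung-san at the low dose each held in 15 of 16.

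**Figure D5:**
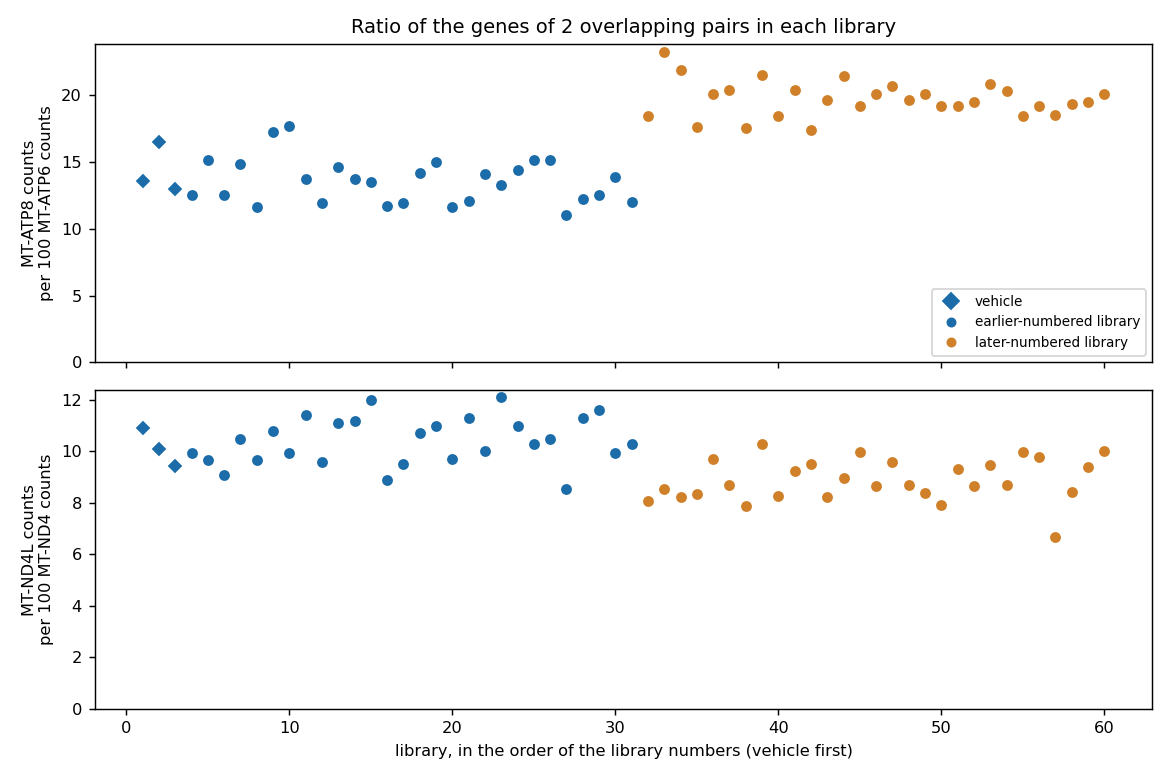
Counts of MT-ATP8 per 100 counts of MT-ATP6 (upper panel) and of MT-ND4L per 100 counts of MT-ND4 (lower panel) in each of the 60 libraries, in the order of their numbers with vehicle first; diamonds are vehicle. The upper ratio steps from 11 to 17.7 in earlier libraries to 17.4 to 23.2 in later ones, and the lower ratio shifts down.

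Genes that serve the pathway were examined as lists, in the mean of all treated groups against vehicle, beside 2.66% of all genes higher and 2.96% lower. Of 78 mitochondrial ribosomal proteins, which translate the 13 mitochondrial messages, 2 were higher and 0 lower (median 0.06), MRPL55 at 0.27 ± 0.06 (adjusted p = 0.00223) and MRPL46 at 0.17 ± 0.05 (adjusted p = 0.0339). Of 18 genes for mitochondrial transcription and DNA maintenance, 2 were higher and 1 lower (median 0.05), among them POLG, the mitochondrial DNA polymerase (0.11 ± 0.03, adjusted p = 0.0124), and DGUOK, a deoxynucleoside kinase (-0.12 ± 0.04, adjusted p = 0.0265). Of 19 genes for mitochondrial RNA processing and stability, 2 were higher and 0 lower (median 0.08): PNPT1, an exoribonuclease of the mitochondrial RNA degradosome (0.15 ± 0.04, adjusted p = 0.0137), and FASTKD3 (0.14 ± 0.04, adjusted p = 0.0247).

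Tricarboxylic acid cycle genes had 3 higher and 0 lower of 21 (median 0.04), among them SUCLA2 (0.14 ± 0.04, adjusted p = 0.0317) and IDH3A (0.10 ± 0.03, adjusted p = 0.0374). Of 14 transcriptional regulators of the pathway 1 was higher, the corepressor NRIP1 (0.23 ± 0.04, adjusted p = 0.000779), while GABPA, an ETS factor, missed at 0.15 ± 0.05 (adjusted p = 0.0594). Of 19 mitochondrial proteases and chaperones 1 was higher, the chaperonin HSPD1 (0.11 ± 0.03, adjusted p = 0.0417). None of 41 assembly factors outside the symbol rule and none of 14 cytochrome c and coenzyme Q genes was called. The 2 mitochondrial ribosomal RNAs, MT-RNR1 and MT-RNR2, differed by -0.05 ± 0.11 and -0.11 ± 0.08 and were not called. Of 9 tested nuclear copies of mitochondrial genes, whose reads the counting can confuse with those of the 13 genes, all were lower than vehicle (median -0.36) and 2 were called, MTND4P12 (-0.57 ± 0.14, adjusted p = 0.0113) and MTCO1P12 (-0.34 ± 0.11, adjusted p = 0.0467). These copies held 0.155% to 0.303% of all counts, against 8.65% to 12.6% for the 13 genes. For the cell type markers, CDH1 and LGALS4 of the colon epithelium list were lower (-0.09 ± 0.02 and -0.12 ± 0.03, adjusted p = 0.0101 and 0.0173) and 0 of 12 higher, and COL1A1, of 2 fibroblast genes tested, was lower; the part of these in the result was not tested.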

How the data were processed

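RNA from HT29 cells was sequenced as 100 bp read pairs with a strand-specific kit, per the labels' protocols. FastQC 0.11.9, Trim Galore 0.6.5, STAR 2.7.3a and RSEM 1.3.3 are named, with GRCh38, in the submitters' processing notes. Which annotation release was counted, and with what strand option, is not given in the sources used here. The authors deposited expected counts per gene, estimates that need not be whole (27.7% of values above 0 were not). These were rounded, filtered for low counts and scaled by TMM. edgeR 4.0.16 in R 4.3.3 fitted 1 robust quasi-likelihood model to 17049 genes in 57 libraries (19 groups of 3, 38 residual degrees of freedom); adjusted p is Benjamini-Hochberg over all genes tested, with a threshold of 0.05. Symbols were matched for 56558 of 60675 identifiers, and gene positions and lengths come from GENCODE 29. Shares of counts were compared by exact permutation. The script was tested on simulated data. Soshiho-tang, with 1 library per dose, was not tested.

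The members and lists were chosen with earlier results of these data known. Genes named are all 13 mitochondrially encoded genes, the complex IV genes with tissue forms and ATP5IF1, in each high-dose and each high-against-low comparison the 3 nuclear genes called with the smallest p in each direction, the highest nuclear gene per length in each complex, the 5 nuclear genes most often called higher and the 5 most often lower, and from each other list the 2 genes with the smallest p in the mean of the treated groups. The other nuclear genes with a call were named after their values were seen. One nuclear gene with a call is not reported here. Alternatives were DESeq2 (1.42.0) size factors and test, scaling without the mitochondrially encoded genes, no filter, a replicate block, a term for the position in the library numbering, the earlier-numbered libraries alone, each comparison fitted on its own groups, and leaving out libraries. Reads of near-identical genes (UQCRH, ATP5MF and its readthrough, nuclear copies of mitochondrial genes) are divided by estimate, so these values are uncertain. Depth was 19495005 to 41934333 counts per library. Same-numbered libraries deviated together in 1 of 27 comparisons only, so numbers were not taken to pair libraries. No 2 libraries of a group agreed within sampling noise (chi-square per degree of freedom 1.89 to 26.1 over 57 pairs).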

Additional observations from a re-analysis of the deposited data

How the results depend on the processing

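Directions never reversed in 67 calls of single genes, of which 51 missed the threshold with the numbering term and 0 with the replicate block or the DESeq2 test. The 23 lower calls of mitochondrially encoded genes became 158 with no filter, 72 with groups compared alone, 36 with the DESeq2 test, 7 with the numbering term, and 13 among earlier-numbered libraries (1 in the same comparisons otherwise). For nuclear genes the 13 lower calls became 56, 43, 22, 14 and 9 under these settings, and the 23 higher calls 56, 79, 36, 14 and 48; the last of each set against 0 lower and 3 higher in the same comparisons otherwise. Of the 14 lower calls with the numbering term only those of SDHAF4 and COX6B1 with Soyo-san at the low dose were called without it, and of the 14 higher ones only those of COX5A with Menthae Herba and Guibi-tang at the high dose. With no filter, 3 mitochondrially encoded genes were higher against vehicle, 11 were called in the treated mean (6 otherwise), 13 between doses and 9 between extracts, where 0 were called otherwise; nuclear genes gave 4 between doses and 3 between extracts. Groups compared alone gave 1 mitochondrially encoded gene between extracts and 1 nuclear gene each between doses and between extracts, and earlier-numbered libraries gave 2 and 1 nuclear genes. The 2 nuclear calls in the treated mean became 5 with the numbering term and 16 among earlier-numbered libraries, where that mean covered 10 groups. The cause was not tested.

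Leaving out each vehicle or treated replicate in turn gave 9 to 25 lower mitochondrially encoded calls, 4 to 31 lower and 6 to 21 higher nuclear calls, and in the treated mean 0 to 5 mitochondrially encoded and 0 to 3 nuclear calls. The replicate block gave 27 lower mitochondrially encoded, 31 higher and 18 lower nuclear calls; libraries share only a number. The median difference in share of -1.53 percentage points was -1.67, -1.63 and -1.3 without vehicle replicate 1, 2 and 3. Measured otherwise, it was -1.6 as a share of protein-coding counts and -1.68 with the mitochondrial ribosomal RNAs added. The median over the mitochondrially encoded genes was below 0 in 18 of 18 comparisons with DESeq2 size factors and with scaling that left them out.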
